A study of Mus musculus with 2 samples.

Results

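H3f3a, H3f3b, H2afz, H2afv, H2afx and H2afy encode replacement histones, the H3 and H2A variants that are also made outside S phase. The 6 genes were picked by symbol from the 32245 symbols in the count matrices, with earlier results of these libraries known, and all 6 were found. Transcripts of single microglia had been counted in droplets from their 3′ ends. Microglia, the brain's own immune cells, came from the hippocampus of mice 3 weeks after birth. There were 2 libraries: 1 of Control mice, and 1 of mice that had been growth-restricted as fetuses (FGR, for fetal growth restriction). Both came from mice of genotype Tmem119-tdTomato+/-, in which 1 copy of the microglial gene Tmem119 carries a red fluorescent reporter, and cells positive for Tmem119 had been collected by flow cytometry. How growth was restricted and how many animals were pooled in each library is not stated in these sources. With a single library on each side there is no replicate, so nothing below was tested between groups, and higher or lower refers to these 2 libraries.

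Nucleosomes wrap DNA around histones H2A, H2B, H3 and H4. The bulk forms are made from gene clusters in S phase, from mRNAs that end in a stem-loop rather than a poly(A) tail, while replacement variants come from single genes, mostly with introns and polyadenylated mRNAs, and can be exchanged into chromatin at any time. H3.3 marks active genes, H2A.Z flanks their start sites, H2A.X is phosphorylated beside DNA breaks, and macroH2A is enriched in silent chromatin. Microglia divide rarely once the brain is populated, and in long-lived non-dividing cells such as neurons H3.3 becomes the main form of H3.

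H3.3 is made by a pair of genes. H3f3a (ENSMUSG00000060743) is a protein-coding gene on the minus strand of chromosome 1, 180800832 to 180813943 in GRCm38 (mm10). H3f3b (ENSMUSG00000016559) is on the minus strand of chromosome 11, 116021912 to 116027962. Their coding sequences, compared in the transcripts H3f3a-205 and H3f3b-201 of GENCODE M21, differ at 95 of 408 bases, an identity of 76.7%. Of 136 codons, 83 differ and 0 change the amino acid. The first 120 bases of each show how the same protein is spelled, with the 24 bases that differ in capitals.
H3f3a coding: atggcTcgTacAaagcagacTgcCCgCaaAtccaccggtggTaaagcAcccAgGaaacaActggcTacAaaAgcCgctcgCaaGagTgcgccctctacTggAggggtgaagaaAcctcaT
H3f3b coding: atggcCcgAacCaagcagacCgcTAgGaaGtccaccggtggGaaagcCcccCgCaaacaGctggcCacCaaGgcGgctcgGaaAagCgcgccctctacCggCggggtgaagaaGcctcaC
The 3′ untranslated parts, where the reads of a 3′ library mostly fall, are 2245 and 1446 bases long and share no run longer than 12 bases, against a longest shared run of 23 bases in the coding part. H3f3a is overlapped on the other strand by the noncoding gene Gm17275 and by the antisense gene H3f3aos. H3f3aos held 118 UMIs among Control cells and 113 among FGR cells. Whether counting used strand is not given, so their reads may not be fully separable. No annotated gene overlaps H3f3b.

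The starts of both genes are shown because the 2 genes encode 1 protein and their ratios between the libraries lay on opposite sides of 1. Each run is 300 bases (250 before the RefSeq start and 50 from it on, GRCm38.p6), with matches to the searched motifs in capitals. H3f3a is read from chr1:180813556-180813855 and H3f3b from chr11:116024455-116024754, both on the minus strand. Both windows lie inside the GENCODE gene spans, which reach further upstream, to 180813943 and 116027962. The sequence at those outer ends was not searched, so the motifs describe the RefSeq starts only.
H3f3a start: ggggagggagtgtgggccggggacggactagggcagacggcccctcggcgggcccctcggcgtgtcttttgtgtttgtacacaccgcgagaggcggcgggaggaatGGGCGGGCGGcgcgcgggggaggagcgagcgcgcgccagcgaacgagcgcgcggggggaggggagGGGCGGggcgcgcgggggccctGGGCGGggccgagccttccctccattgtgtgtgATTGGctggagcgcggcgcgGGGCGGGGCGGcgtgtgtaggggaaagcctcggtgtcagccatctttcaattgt
H3f3b start: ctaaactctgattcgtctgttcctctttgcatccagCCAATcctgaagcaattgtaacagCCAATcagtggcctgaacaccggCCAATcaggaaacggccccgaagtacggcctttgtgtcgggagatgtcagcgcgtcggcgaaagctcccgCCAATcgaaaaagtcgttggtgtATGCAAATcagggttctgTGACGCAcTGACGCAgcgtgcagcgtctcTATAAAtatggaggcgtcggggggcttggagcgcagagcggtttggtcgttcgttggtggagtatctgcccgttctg
The motifs searched on both strands were TGACGTCA (the cAMP response element), its relative TGACGCAA, the AP-1 site TGAGTCA, the box CCAAT, the box TATAAA, the GC box GGGCGG, the cell cycle element TTTGAA and a serum response element. Neither H3f3 window matched the first 3 or the serum response element. A shorter form, TGACGCA, and the octamer ATGCAAAT were added after the sequence was seen. The H3f3a window holds 74% G or C and has 6 matches to GGGCGG, a motif found in 35.7% of all 32851 windows of this length, and 1 to CCAAT (37.4% of windows). No TATAAA is in it. The H3f3b window holds 55% G or C. It has 4 matches to CCAAT, 1 to TATAAA (13.6% of windows) starting 27 bases before the start, 2 to TGACGCA (2.12%) and 1 to ATGCAAAT (1.74%), and none to GGGCGG. Among the other members with a window, H2afz had 3 matches to CCAAT and 2 to GGGCGG, H2afv had 4 and 1, and H2afy had 0 and 2. H2afv also had 1 match to TTTGAA (17.9% of windows). A window was found for 5 of the 6 members, all but H2afx. A match describes letters and is not a bound site.

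Barcodes counted as cells had at least 1500 UMIs (molecular tags that each count 1 captured mRNA), at least 200 genes and at most 10% mitochondrially coded UMIs. This gave 10687 Control and 8618 FGR cells, with medians of 4657 and 4919.5 UMIs and with 53560293 and 45441515 UMIs in all. The libraries shared 31 cell barcodes, 0.290% of the Control and 0.360% of the FGR cells. All 15 microglial markers stood at 50 UMIs in each 1000000 (CPM) or more in both libraries, Tmem119 at 910.4 and 949.8 CPM. Summed over 48 markers of other brain and blood cells, of which 43 and 46 were above 0, the level was 614.0 CPM in Control cells and 729.0 CPM in FGR cells. The types differed in both directions. Astrocyte markers summed to 199.999 CPM in Control and 330.359 CPM in FGR cells (8 of 8 above 0). They were found in 23.6% and 36.5% of thinned cells. Most of this sum was 1 gene, Slc1a3, at 163.3 and 297.9 CPM. Of the other astrocyte markers, Gfap, Gja1, Atp1b2 and Clu were higher in FGR cells, and Slc1a2, Aldoc and Aqp4 were lower. Oligodendrocyte markers summed to 188.4 and 236.4 CPM and vascular markers to 54.0 and 84.3 CPM. Red blood cell markers summed to 121.6 and 34.0 CPM and neuronal markers to 8.46 and 3.81 CPM.

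H3f3b was the member that stood apart between the libraries. Its level was 3096 CPM among Control cells (95% Poisson interval 3081 to 3111) and 6172 CPM among FGR cells (6149 to 6195), a ratio of FGR over Control of 1.99 (exact conditional interval 1.98 to 2.01). H3f3a, which encodes the same protein, stood at 850.6 CPM (842.8 to 858.4) in Control cells and at 745.2 CPM (737.3 to 753.2) in FGR cells, a ratio of 0.876 (0.864 to 0.889). These intervals, like all below, cover counting error only. So the gene that was already the more abundant was higher in the FGR library and its partner was lower. Among all symbols, H3f3b took rank 26 by level among Control cells and rank 8 among FGR cells, and its gain of 3076 CPM was rank 2 of all gains. H3f3a moved from rank 162 to rank 190. A 3′ library tags each molecule once, so levels of different genes are given as molecules captured, not per length, and capture may differ between genes.

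**Figure D1:**
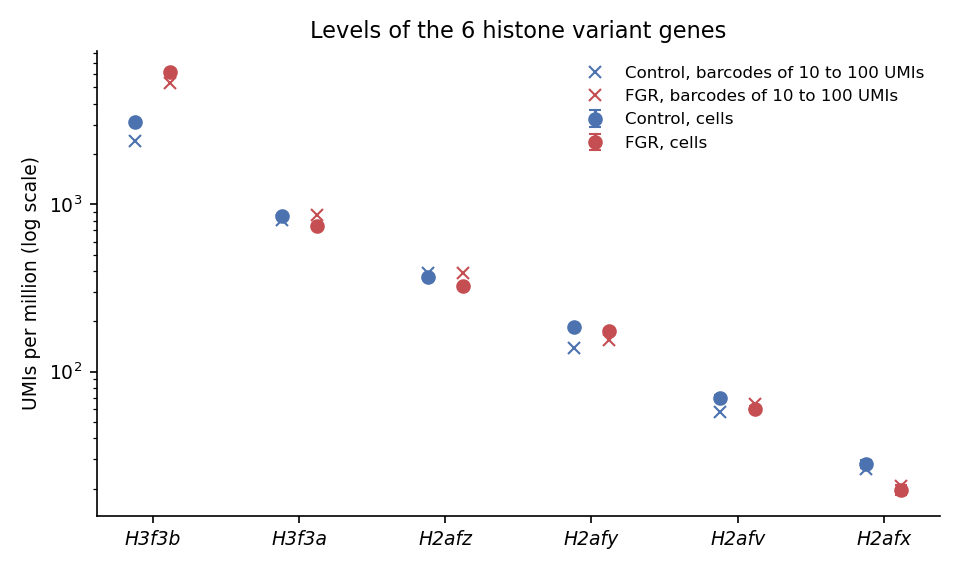
Level of each member in CPM (log axis) in the cells of the Control (blue) and FGR (red) libraries, circles with 95% Poisson intervals, mostly smaller than the symbol. Crosses give the level in barcodes of 10 to 100 UMIs; H3f3b is the member whose 2 circles lie far apart, at 3096 and 6172.

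Both genes together, the H3.3 message, stood at 3946 CPM in Control cells and at 6917 CPM in FGR cells, a ratio of 1.75 (1.74 to 1.76). Of these UMIs, H3f3b held 78.4% in the Control library (Clopper-Pearson interval 78.3 to 78.6%) and 89.2% in the FGR library (89.1 to 89.3%). There were 3.64 H3f3b UMIs for each H3f3a UMI in Control cells and 8.28 in FGR cells. This share does not depend on how the libraries are scaled. Free RNA, read from barcodes of 10 to 100 UMIs, had the same order. There H3f3b stood at 2395 and 5285 CPM, a ratio of 2.21 (2.14 to 2.27), and H3f3a at 809.2 and 859.1 CPM, a ratio of 1.06 (1.001 to 1.13). The H3f3b share was 74.7% and 86.0% in them. For H3f3a the ratio thus lay below 1 in cells and not in these barcodes.

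The remaining members are H2A variants. H2afz (ENSMUSG00000037894, chromosome 3, plus strand, 137864487 to 137866922), the main gene of H2A.Z, stood at 369.4 CPM in Control cells and 326.0 CPM in FGR cells, a ratio of 0.883 (0.864 to 0.902). H2afv (ENSMUSG00000041126, chromosome 11, minus strand, 6427229 to 6444443), the other H2A.Z gene, stood at 70.0 and 60.0 CPM, a ratio of 0.856 (0.815 to 0.900). H2afz and H2afv differ at 80 of 384 coding bases, and 3 of their 128 codons encode another amino acid. Unlike the H3.3 pair, the H2A.Z pair kept nearly one share. H2afv held 15.9% of H2A.Z UMIs in Control cells (15.5 to 16.4%) and 15.5% in FGR cells (15.0 to 16.1%), and these intervals overlap.

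H2afy (ENSMUSG00000015937, chromosome 13, minus strand, 56073619 to 56136361) encodes macroH2A1, an H2A with a large extra domain. It stood at 184.9 CPM in Control cells and 174.6 CPM in FGR cells, a ratio of 0.944 (0.917 to 0.973). Counts of 3′ ends per gene do not separate its splice forms. H2afx (ENSMUSG00000049932, chromosome 9, plus strand, 44334694 to 44336077), a gene with 1 exon, was the scarcest member, at 28.1 CPM and 19.7 CPM (1503 and 896 UMIs), a ratio of 0.703 (0.646 to 0.764). Its mRNA can end in a stem-loop or in a poly(A) tail, and a library primed on poly(A) captures the latter.

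A fixed rule of size stood in for a test: at least 50 CPM in 1 library, and the interval of the ratio wholly above 1.5 or below 1/1.5. By that rule 2.48% of 3512 genes were higher in the FGR library and 1.17% were lower. Of the members, 5 were measured at 50 CPM, of which 1, H3f3b, was higher and 0 were lower. H2afx lay under the 50 CPM minimum. The members were chosen with these ratios known, so the counts describe them and support nothing. The median log2 ratio of the 3512 genes was -0.07, so a ratio a little under 1 was usual. On the log2 scale H3f3b had a ratio of 0.995, H3f3a -0.19, H2afz -0.18, H2afv -0.22, H2afy -0.08 and H2afx -0.51. H3f3b exceeded 98.7% of the genes measured, while H3f3a exceeded 22.6% of them, H2afz 24.2%, H2afv 16.8% and H2afy 45.7%.

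Most cells held H3f3b. With every UMI counted, 99.6% of Control and 99.4% of FGR cells had at least 1 H3f3b UMI, and 95.1% and 93.8% had 1 of H3f3a. For H2afz the shares were 76.6% and 73.1%, for H2afy 55.9% and 55.8%, for H2afv 28.0% and 25.6%, and for H2afx 11.99% and 8.58%. These genes are active in nearly all cell types, so no type in the sort serves as a blank for free RNA. To put cells on 1 depth, each was thinned at random to 1500 UMIs, which kept every cell. At that depth 95.3% and 97.5% of cells had H3f3b, 69.8% and 65.2% had H3f3a, and 40.8% and 36.9% had H2afz. H2afy was then found in 24.05% and 23.0% of cells, H2afv in 9.97% and 8.91%, and H2afx in 4.13% and 2.66%.

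The difference in H3f3b was a broad shift with a long upper tail. In thinned Control cells the 5th percentile, median and 95th percentile were 1, 4 and 11 H3f3b UMIs, and in thinned FGR cells they were 1, 8 and 23. The libraries overlapped: 70.0% of FGR cells lay above the Control median, and 12.5% of Control cells above the FGR median. Variance over mean (the Fano factor, 1 for pure counting) was 2.38 in Control and 5.16 in FGR cells for H3f3b. For H3f3a it was 1.14 and 1.07, for H2afz 1.15 and 1.14, for H2afy 1.03 and 1.03, for H2afv 1.03 and 1.01 and for H2afx 1.08 and 1.13. H3f3b thus had the largest factor. The factor comes near 1 for any scarce gene, and mean UMIs per thinned cell were 4.72 and 9.17 for H3f3b but 0.0438 and 0.0284 for H2afx. It therefore cannot rank the members by how much they varied between cells.

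**Figure D2:**
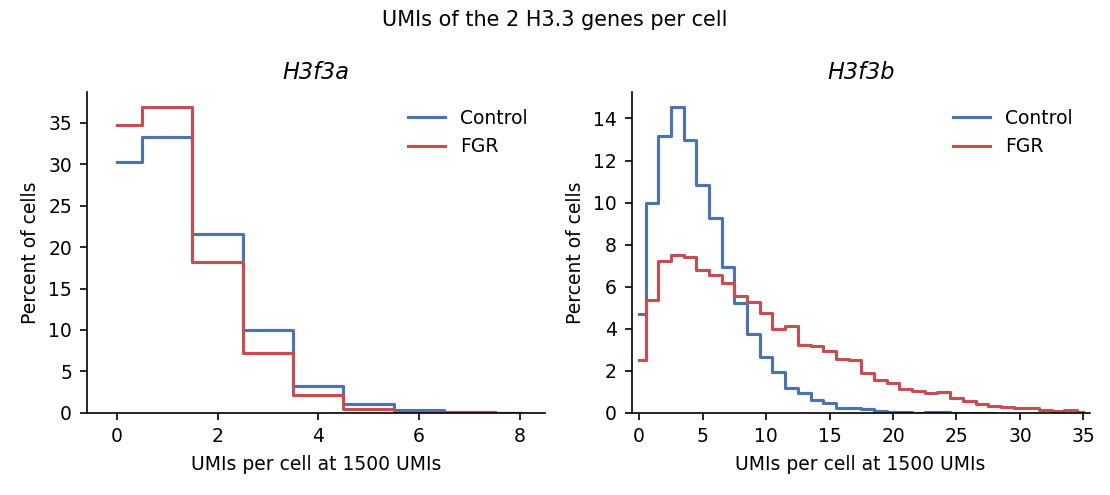
Percent of cells (vertical) by the number of UMIs of H3f3a (left) or H3f3b (right) after thinning to 1500 UMIs, for Control (blue) and FGR (red). The H3f3a curves have a median of 1 in both, with 30.2% of Control and 34.8% of FGR cells at 0. The H3f3b curve of the FGR library is flatter, with a median of 8 against 4 and a tail to the right.

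The share of H3f3b within a cell was taken in cells with at least 10 H3.3 UMIs, 8902 Control cells (83.3%) and 7626 FGR cells (88.5%). The median share was 79.3% in Control and 89.5% in FGR cells, with quartiles of 69.6 and 87.0% and of 81.8 and 94.2%. The spread over cells (SD) was 13.2 percentage points in Control and 11.001 in FGR cells, where counting alone would give 9.45 and 5.79. H3f3a outnumbered H3f3b in 266 of these Control cells (2.99%) and in 75 FGR cells (0.983%). Cells need 10 H3.3 UMIs to enter, so cells high in H3f3b are over-represented.

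**Figure D3:**
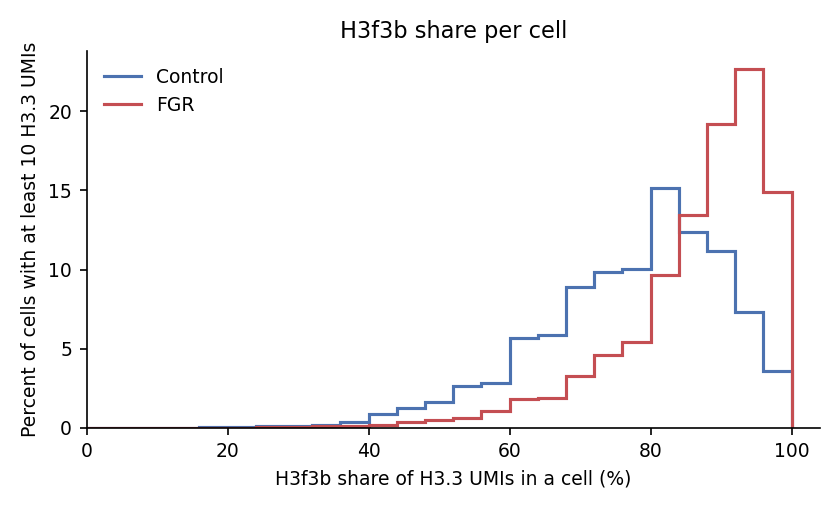
H3f3b share of H3.3 UMIs in each cell with at least 10 of them (horizontal, percent) against the percent of such cells (vertical), for Control (blue) and FGR (red). Both distributions peak above 80%, and the FGR one is shifted to the right, with medians of 79.3% and 89.5%.

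H3f3b followed the immediate early genes, which respond within minutes to stimulation and also to tissue dissociation. Cells were split into quartile groups by their thinned UMIs of 22 immediate early genes (none a member), with limits at 35, 54 and 76 UMIs over both libraries. Control cells had a median of 48 such UMIs and FGR cells of 63, and the top quartile group held 15.5% of the Control and 36.0% of the FGR cells. From the lowest to the highest quartile group, H3f3b went from 1997 through 2911 and 3787 to 4813 CPM in the Control library. In the FGR library it went from 2651 through 4563 and 6185 to 8819 CPM. The top quartile group thus exceeded the lowest by a ratio of 2.41 (2.35 to 2.48) and 3.33 (3.24 to 3.42). H3f3a went only from 820.2 to 921.7 CPM in Control cells, a ratio of 1.12 (1.07 to 1.18), and from 692.9 to 732.0 CPM in the FGR library, a ratio of 1.06 (0.997 to 1.12). Accordingly the H3f3b share ran through 70.9, 77.5, 81.4 and 83.9% in Control quartile groups and 79.3, 86.5, 89.6 and 92.3% in FGR quartile groups.

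At like immediate early UMIs the libraries still differed in both genes. The H3f3b ratio of FGR over Control was 1.33 (1.29 to 1.37), 1.57, 1.63 and 1.83 (1.80 to 1.87) from the lowest to the highest quartile group. That of H3f3a was 0.845, 0.843, 0.826 and 0.794 (0.753 to 0.838). With equal numbers of cells per quartile group in both libraries, 7170 cells each, the ratio of H3f3b was 1.65 (1.63 to 1.67) and that of H3f3a 0.820 (0.795 to 0.845). Quartile groups are ranges of a score rather than cell types, and the top one, open at its upper end, can hold different levels in the 2 libraries. The part that immediate early activity has in the difference was not tested.

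H2afx also had a gradient over immediate early UMIs, in Control cells. In Control quartile groups it stood at 18.9, 24.8, 36.2 and 46.3 CPM, a ratio of top to lowest of 2.46 (1.85 to 3.27). In FGR quartile groups it stood at 19.4, 15.8, 15.3 and 23.0 CPM, a ratio of 1.19 (0.837 to 1.71) whose interval held 1; the difference between the 2 gradients was not tested. The FGR over Control ratio of H2afx was 1.03 (0.709 to 1.47) in the lowest quartile group and lay below 1 with its interval in each of the other 3, at 0.635 (0.437 to 0.909), 0.424 (0.298 to 0.592) and 0.496 (0.378 to 0.651). These levels rest on 92 to 146 UMIs per Control quartile group and 43 to 107 per FGR quartile group. Of the other H2A variants, H2afv was lower in the top than in the lowest Control quartile group and H2afy in the top FGR one, while the other intervals held 1. H2afz had top to lowest ratios of 1.08 (0.995 to 1.16) in the Control and 0.936 (0.860 to 1.02) in the FGR library, and H2afv of 0.795 (0.654 to 0.962) and 0.862 (0.705 to 1.06). For H2afy the ratios were 0.916 (0.816 to 1.03) and 0.825 (0.736 to 0.925).

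**Figure D4:**
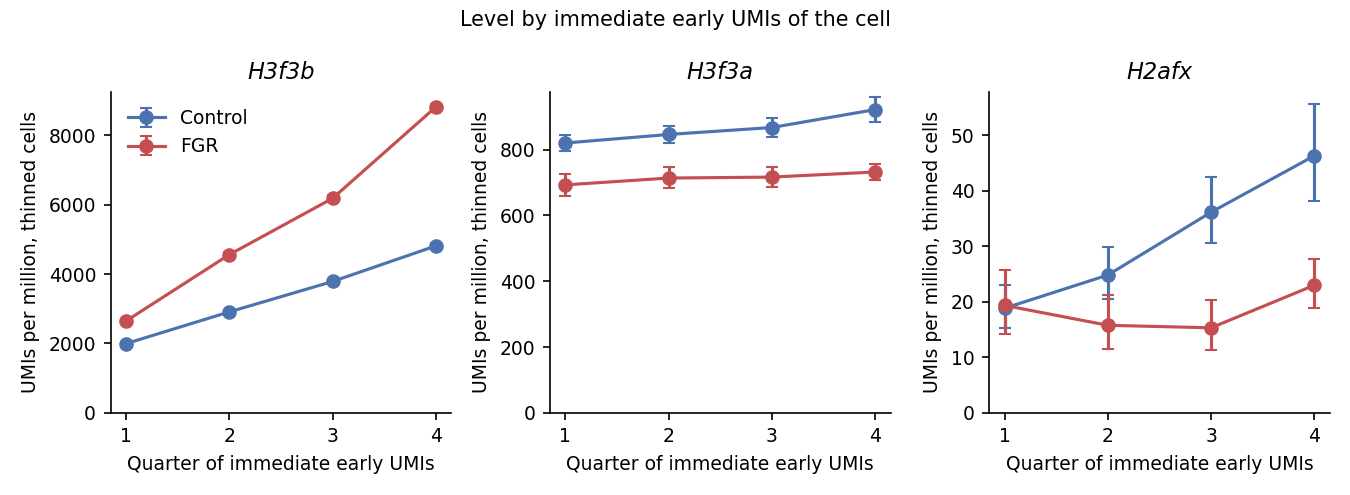
Level in CPM of thinned cells (vertical, with 95% Poisson intervals) of H3f3b, H3f3a and H2afx against the quartile group of immediate early UMIs (horizontal), for Control (blue) and FGR (red). H3f3b is higher in each next group of both libraries, up to 4813 and 8819; H3f3a lies between 692.9 and 921.7; H2afx goes from 18.9 to 46.3 in Control cells.

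Across cells, early response genes were among those most like H3f3b. Each cell's thinned counts were put on a log scale, correlated with 3219 genes of at least 50 CPM in both libraries, and ranked by the lower of the 2 libraries' Pearson coefficients. The highest-ranked genes for H3f3b included Jun (0.350 in Control and 0.405 in FGR cells), which encodes an AP-1 subunit, and the transcription factor gene Egr1 (0.352 and 0.332). They also included the antiproliferative gene Btg2 (0.317 and 0.388) and Zfp36 (0.264 and 0.415), which encodes an mRNA decay factor. These 4 genes are on the immediate early list. Their own ratios of FGR over Control were 1.13, 0.755, 1.33 and 1.61, so Egr1 was lower in the FGR library while H3f3b was higher. For H3f3a the nearest was Tpt1 at 0.067 and 0.074, and for H2afz it was Stmn1 at 0.052 and 0.056. Coefficients this low in sparse counts are no finding. H3f3b and H3f3a had a coefficient of 0.038 in Control and 0.018 in FGR cells, values from which nothing is read either, since H3f3a had about 1 UMI per thinned cell. Cells of a library share its preparation, and counts within a cell sum to a fixed total.

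H2afz, H2afv and H2afx were higher in cycling cells, as a description of few cells. Cells with at least 3 thinned UMIs of 18 proliferation genes numbered 78 among Control cells (0.730%) and 56 among FGR cells (0.650%), and 8069 and 6839 cells had 0. In the Control library H2afz stood at 1154 CPM in cycling cells against 364.7 CPM in the others, a ratio of 3.16 (2.65 to 3.76), and in the FGR library at 1024 against 320.7 CPM, a ratio of 3.19 (2.55 to 3.95). H2afv had ratios of 3.41 (2.25 to 4.96) and 4.80 (3.05 to 7.21). H2afx had 4.83 (2.73 to 7.95) and 16.8 (10.5 to 25.9), from 16 and 24 UMIs in cycling cells. Intervals of H3f3a, 1.03 (0.843 to 1.26) and 1.18 (0.921 to 1.49), and of H2afy, 1.38 (0.932 to 1.98) and 1.09 (0.621 to 1.77), held 1. H3f3b had 1.22 (1.11 to 1.34) and 1.202 (1.11 to 1.30). Just under the limit, at 2 UMIs, lay 314 Control and 207 FGR cells, and just inside it, at 3, lay 49 and 30.

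**Figure D5:**
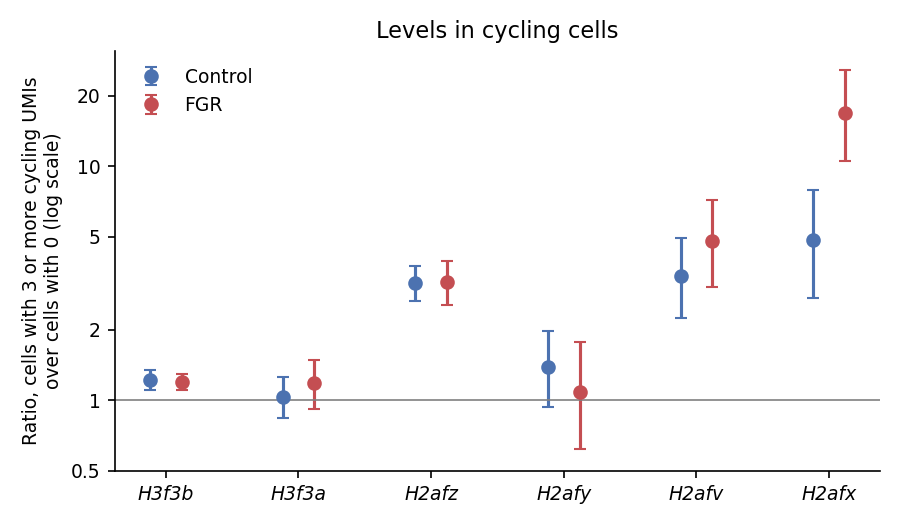
Ratio of the level in cells with at least 3 cycling UMIs to that in cells with 0 (log axis, with exact 95% intervals) for each member, in Control (blue) and FGR (red). H2afz, H2afv and H2afx lie above 3 in both libraries, and H3f3a and H2afy have intervals that hold 1, marked by the grey line.

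In cells with 0 cycling UMIs every member had a ratio on the same side of 1 as over all cells. There the FGR over Control ratio was 1.94 for H3f3b, 0.841 for H3f3a, 0.879 for H2afz, 0.848 for H2afv, 0.599 (0.496 to 0.720) for H2afx and 0.945 for H2afy. In cells with 1 to 2 cycling UMIs the ratio of H2afy was 1.01 (0.902 to 1.14). In cycling cells the ratio of H2afx was 2.09 (1.06 to 4.21), on the other side of 1, from 16 Control and 24 FGR UMIs. H3f3b kept a ratio of 1.91 (1.69 to 2.16) there. The H3f3b share was 81.3% in Control and 89.6% in FGR cycling cells.

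H3f3b differed less between the libraries in shallow cells. In cells under 3000 UMIs (846 Control and 713 FGR cells) its ratio was 1.195 (1.14 to 1.25), against 1.93, 2.17 and 1.99 in cells of 3000, of 5000 and of 7500 UMIs or more, each up to the next limit and all thinned alike. The FGR level was 3404 CPM in the shallowest cells and 6438, 6498 and 5554 CPM in the deeper ones. In Control cells it was 2849 CPM and then 3342, 2996 and 2794 CPM. For H3f3a the ratio was 0.831, 0.799, 0.875 and 0.884 over the same ranges.

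The ratios were close to these in cells without markers of other types. Among cells with at least 5 microglial marker UMIs and none of oligodendrocyte, astrocyte, neuron, vascular, border macrophage or other leukocyte markers (5997 Control and 4394 FGR cells), the ratio was 2.03 (2.02 to 2.05) for H3f3b and 0.880 (0.863 to 0.897) for H3f3a. Cells with at least 3 oligodendrocyte marker UMIs, 246 in the Control and 32 in the FGR library, had less H3f3b than cells with 0. There it stood at 2854 against 3151 CPM among Control cells and at 3708 against 6204 CPM among FGR cells. In cells with at least 3 UMIs of 12 interferon genes (136 and 111 cells) H3f3b stood at 3064 CPM in Control cells, a ratio to cells with 0 of 0.972 (0.897 to 1.05), and at 5183 CPM in the FGR library, a ratio of 0.840 (0.784 to 0.898).

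Among other histone genes, those that passed the rule encode linker histones. In a list of 19 further variant, linker and single histone genes in the matrices, 7 reached 50 CPM. The rule of size found 4 higher and 0 lower, against 2.48% and 1.17% of all 3512 genes. The median log2 ratio was 0.91, against -0.07 for all genes. Of the 7, 6 had an interval wholly above 1. The interval of the other, an H2A gene, lay below 1, at a ratio of 0.693 (0.655 to 0.732). The list holds linker histone genes already known from these libraries to differ, so it is no independent evidence. Linker histones bind DNA between nucleosomes, and the 4 genes were Hist1h1d (28.5 CPM in the Control and 141.5 in the FGR library, ratio 4.97), Hist1h1c (86.5 and 393.3, ratio 4.55), Hist1h1e (171.9 and 454.9, ratio 2.65) and H1f0 (34.8 and 65.5, ratio 1.88). H1f0 no longer passed in cells matched on immediate early UMIs, at 1.70 (1.496 to 1.93). Of 29 replication-coupled H2A and H3 genes, whose mRNAs mostly lack a poly(A) tail, 0 reached 50 CPM in either library. Summed, they stood at 161.7 CPM in the Control and 246.8 in the FGR library, a ratio of 1.53 (1.48 to 1.57). Ratios of single genes among them lay on both sides of 1, so the sum does not describe each gene. An H2A gene at 35.3 and 46.0 CPM is in both this list and the list of 19.

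Genes that handle the variants were read against the 3.64% of all 3512 genes that passed the rule in either direction. Of 8 measured genes of H3.3 deposition 1 passed, as lower, and the median log2 ratio was -0.11, near the -0.07 of all genes. The lower one was Nasp, a chaperone of H3 and H4 and of linker histones, at 81.8 CPM in the Control and 43.7 in the FGR library, a ratio of 0.534 (0.507 to 0.564). Ubn1 and Ubn2, subunits of the HIRA complex that deposits H3.3, had ratios of 0.832 and 0.875, and the remodeller gene Chd1 of 0.892. Of 6 measured genes of H2A.Z exchange 0 passed, with a median of -0.13. Mbtd1, Srcap, Ep400 and Brd8, parts of the complexes that place H2A.Z, had ratios of 0.779, 0.891, 0.894 and 0.932, though Brd8 turned to 1.01 in cells matched on immediate early UMIs. All 10 general histone chaperone genes were measured and 0 passed, with a median of -0.09 and ratios of 0.904 for Npm1, 0.913 for Supt16, 0.914 for Supt6 and 1.09 for Nap1l1. Of 10 genes of damage signalling at H2A.X only Baz1b, a kinase for H2A.X, was measured, at 83.7 and 83.6 CPM.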

How the data were processed

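The deposited files give whole UMI counts, neither filtered nor normalized, from Cell Ranger 4 (per the file headers). Per the submitters' processing notes, the tools were Cell Ranger 3.0 and Seurat 5.0, with mm10. Sample titles gave the groups. Annotation and strand setting: not given in the sources used here. Counts of 38 symbols held by more than 1 of 32285 gene IDs were summed. Cells held 90.8% and 89.4% of the 58988805 Control and 50833332 FGR UMIs. No doublets were removed. UMIs were summed over cells of each library and scaled to CPM. No test was possible with single libraries. Intervals are at 95% (Python 3.11.15, numpy 2.4.6, scipy 1.17.1). Counts were also simulated for FGR over Control (3379 genes) with Poisson counting error alone. There 95.4% of intervals held the true ratio, and 100% of genes set 2-fold higher or 2-fold lower passed the rule. This checks the calculation only, because the simulation held no spread between cells, animals or libraries. Positions and transcripts are from GENCODE M21 (GRCm38), promoter windows from RefSeq GRCm38.p6.

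The members, gene lists, ranges and genes to name were chosen with earlier results of these data known. Named are all members, per list up to 4 measured genes of largest absolute log2 ratio, and the 5 genes most like H3f3a, H3f3b and H2afz, of which weak ones are not all given and 1 is not reported here. Alternatives covered scaling, UMI and mitochondrial limits, cells with the most UMIs, marker-positive cells, thinning, matching on immediate early UMIs, free RNA and the CPM minimum.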

Additional observations from a re-analysis of the deposited data

How the results depend on the processing

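Over 9 alternatives for each member, all 6 ratios stayed on their side of 1, H3f3b passed the rule of size in each, and no other member did. H2afx, at 28.1 and 19.7 CPM over all cells, lay under the minimum of that rule. The interval of H2afy held 1 with median-ratio scaling (0.956 to 1.01), in thinned cells (0.906 to 1.01) and in matched cells (0.911 to 1.03). That of H2afv held 1 in matched cells (0.841 to 1.04). H3f3b ranged from 1.65 to 2.08, H3f3a from 0.820 to 0.914, H2afz from 0.876 to 0.921, H2afv from 0.838 to 0.935, H2afx from 0.591 to 0.733 and H2afy from 0.931 to 0.985. Scaling by the median ratio (a log2 shift of -0.06) gave 0.914 for H3f3a and 2.08 for H3f3b. Cells thinned to 1500 UMIs gave 0.838 and 1.94, with H3f3b shares of 78.6% in the Control and 89.5% in the FGR library. Cells matched on immediate early UMIs gave 0.820 and 1.65, with shares of 79.6% and 88.7%. H3f3b had 2.01 with a minimum of 2500 UMIs and 2.03 in cells with microglial markers and none of other types, where its FGR share was 89.4%. That share was 89.4% with at most 5% mitochondrial UMIs, 89.4% without the 6% of cells with the most UMIs and 89.4% after free RNA set at 5% of UMIs was subtracted.

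The 87 genes higher and 41 lower by the rule became 709 and 237 with no CPM minimum, and 129 and 67 at 20 CPM, as more genes then enter. Matched on immediate early UMIs they were 63 and 56, and with median-ratio scaling 101 and 36. No paired analysis was possible because each group is 1 library. H2afx rests on the fewest UMIs of the 6 members, 1503 and 896.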
